A study of Mus musculus with 6 samples.

Results

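Potassium channel genes were taken as the autosomal protein-coding genes of the RefSeq table for the mouse assembly GRCm38.p6 whose symbols start with Kcn. This gave 92 of 20665 autosomal protein-coding genes. The accessible intervals of a member were those that overlapped its gene body, extended by 10 kb on either side, by at least 1 bp. They numbered 1756 of the 323483 intervals of the experiment (0.543%), and 7 of them lay in the windows of a pair of members. By symbol, 39 members were voltage-gated alpha subunits, 15 were inward-rectifiers, 14 were two-pore channels and 8 belonged to the calcium-activated class. The other 16 were auxiliary genes, whose proteins modify channels without forming the pore. Kcnt1 and Kcnt2 (sodium-activated) and Kcnu1 (gated by pH and voltage) were placed in the calcium-activated class because they belong to the same Slo family as Kcnma1.

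The intervals came from ATAC-seq, which marks DNA open to a transposase, in mouse embryonic fibroblasts heterozygous for M2-rtTA and for TetO-Myf6. All cells were kept for 24 h in iMPC medium with bFGF at 10 ng/mL. A first group of 2 libraries received doxycycline at 2 µg/mL, which induces the muscle regulator Myf6, together with 5 µM forskolin, 5 µM RepSox and 3 µM CHIR99021 (F/R/C). A second group of 2 libraries received doxycycline alone, and the 2 libraries of the third group had medium without further addition. The intervals were joined over all 6 libraries and carry no value for any library, so differences between treatments, read depth and replicate error were not analysed here. An interval marks a place with a called peak in some part of the experiment, and its width is the extent of joined peaks, not a signal level. The fibroblast label was set against marker genes. All 7 fibroblast markers (Col1a1, Col1a2, Col3a1, Pdgfra, Thy1, Fn1 and Vim) had an interval within 1 kb of a gene start, with a median of 39.3 intervals per 100 kb. All 5 myogenic markers had a start interval, with a median of 25.0. Over all autosomal protein-coding genes 74.4% had one and the median density was 18.9, so that such counts over few genes say little about the cells. Of the other markers 2 of 4 macrophage and blood genes (not Adgre1 and Ptprc), 2 of the 3 autosomal neuronal genes (not Rbfox3) and 2 of 3 endothelial genes (not Pecam1) had a start interval.

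Potassium channels let potassium leave the cell along its gradient and so set the resting membrane potential and end action potentials. Voltage-gated channels open on depolarisation, inward-rectifiers pass current best near rest, two-pore channels carry leak current, and calcium-activated channels link calcium to hyperpolarisation. Fibroblasts are not excitable but carry leak, inward-rectifier and calcium-activated currents. In human myoblasts, hyperpolarisation by Kcnh1-type and Kcnj2-type channels precedes fusion into myotubes.

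Every one of the 92 members had at least 1 interval in its window, while 13.0% of all autosomal protein-coding genes had none. That share was not matched for length, and over all genes under 10 kb the lower quartile of density was 0. Without the flank, Kcne2, Kcnj13 and Kcnk18 held 0 intervals, and Kcnk18 held 0 of at least 300 bp. The median member held 11 intervals (quartiles 6 and 21), against 8 (quartiles 4 and 14) over all autosomal protein-coding genes. Members were longer, with a median gene length of 34.5 kb against 17.5 kb. Per 100 kb of window the median was 17.1 intervals for the members and 18.9 for all genes. Members stayed lower under most ways of counting, with 17.6 against 18.7 for a flank of 5 kb and 19.1 against 19.2 without a flank. As total intervals over total window they had 14.1 against 17.5. The direction was reversed, by little, under the following settings only. It was 17.4 against 17.3 with the bases of other gene bodies left out, and 5.58 against 5.38 for intervals of at least 600 bp. Covered sequence differed little, at a median of 9.60% of the window for members and 9.80% for all genes. The intervals of the members had a median width of 336 bp, as had all intervals, and 24.9% of them were at least 600 bp wide against 25.5% of all intervals.

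**Figure D1:**
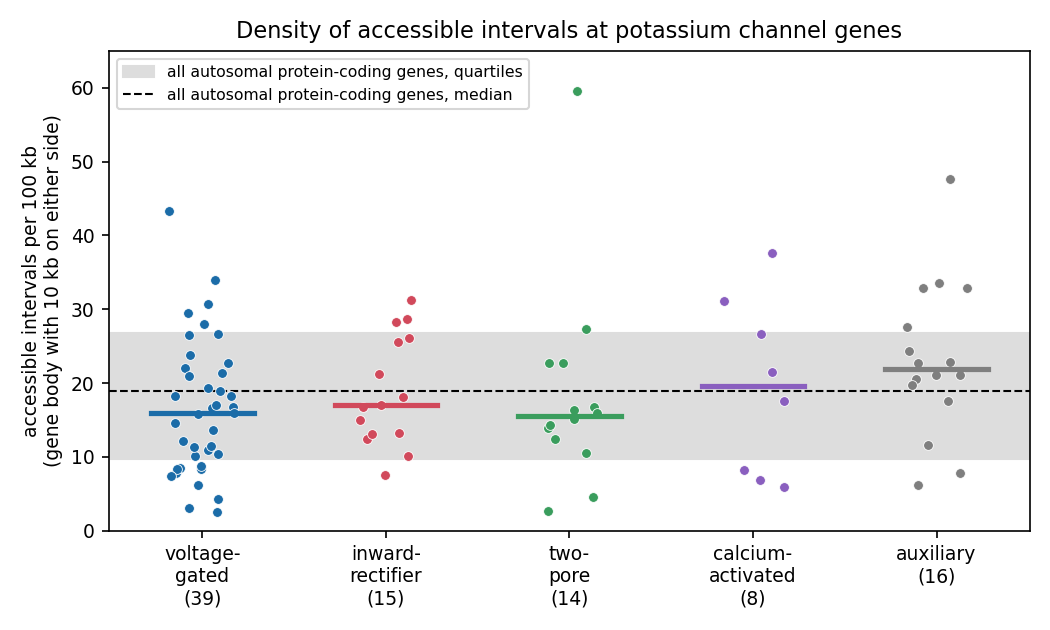
Accessible intervals per 100 kb of window for each of the 92 members, with 1 point per gene, bars at class medians and the number of genes in brackets. The grey band spans the quartiles of single autosomal protein-coding genes (9.69 to 26.7). Class medians lie between 15.5 and 21.9 intervals per 100 kb, and Kcnk7 stands highest at 59.5.

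Densities of the classes overlapped broadly. Auxiliary genes had a median of 21.9 intervals per 100 kb (range 6.23 to 47.6) and the calcium-activated class 19.5 (5.92 to 37.6). Inward-rectifiers had 17.0 (7.51 to 31.2), voltage-gated genes 16.0 (2.51 to 43.3) and two-pore genes 15.5 (2.65 to 59.5). The median over all autosomal protein-coding genes was 18.9, and differences between classes were not tested. The order of the classes depended on the counting. Without a flank inward-rectifiers had the highest median, 24.3, against 23.7 for auxiliary genes and 18.9 for the calcium-activated class. As total intervals over total window inward-rectifiers were again highest, with 16.1 against 14.7 and 14.1. For intervals of at least 300 bp the calcium-activated class had the lowest median, 9.48. By raw count, the calcium-activated class had the highest median, 19.5 intervals per gene, and the longest genes, with a median of 121 kb. The median count was 13.5 for auxiliary genes, 11 for voltage-gated genes and 9 each for inward-rectifiers and two-pore genes, with median lengths between 29.7 and 37.1 kb.

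Above 100 kb, the median number of intervals per 100 kb was lower for members than for all genes of like length. Among the 9 members of 100 to 300 kb the median was 10.3 intervals per 100 kb, against 19.0 over the 1780 autosomal genes of that length (quartiles 12.5 and 25.6), and only Kcnn3 lay above the median of those genes. Among the 14 members over 300 kb the median was 9.69 against 13.3 over 533 genes (quartiles 6.96 and 18.9), with 6 of 14 above. Shorter members lay close to their length bands. Members under 10 kb had 18.2 against 17.0, members of 10 to 30 kb had 19.1 against 20.6, and members of 30 to 100 kb had 19.7 against 19.3. No test over genes was made, and these values describe a single set of intervals.

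**Figure D2:**
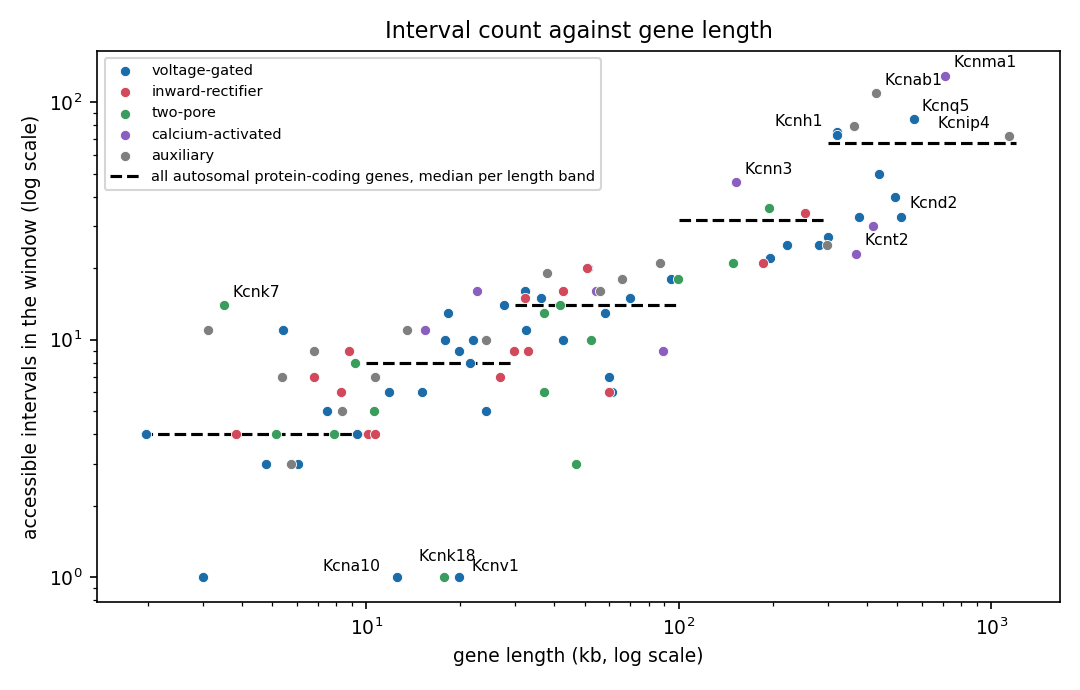
Intervals in the window against gene length, both on log scales, with 1 point per member coloured by class and dashed lines at the median of all autosomal protein-coding genes in each length band. Counts climb with length, Kcnma1 reaches 129, and 4 members hold a single interval.

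Inward-rectifiers had the lowest share of accessible gene starts among the 5 classes. A start interval is here an interval within 1 kb of a start site in the RefSeq promoter table, which gave a start for 68 members, or within 1 kb of either gene end for the other 24. Of the members, 78 of 92 (84.8%) had a start interval, against 74.4% of all autosomal protein-coding genes. All 8 calcium-activated genes and 37 of 39 voltage-gated genes (94.9%, 95% Wilson interval 83.1 to 98.6%) had one. So had 12 of 14 two-pore genes (85.7%, 60.1 to 96.0%) and 13 of 16 auxiliary genes (81.3%, 57.0 to 93.4%). Inward-rectifiers stood lowest, with 8 of 15 (53.3%, 30.1 to 75.2%). This interval holds the 74.4% of all genes and overlaps those of the two-pore and auxiliary classes. Differences between classes in this share were not tested. The Wilson intervals treat genes as independent draws, which neighbouring and related genes are not. The share depends on gene length, and by length the members did not stand above other genes throughout. It was 80.0% for members under 10 kb against 56.0% of all genes of that length, 72.7% against 80.6% at 10 to 30 kb, and 85.2% against 86.2% at 30 to 100 kb. All 9 members of 100 to 300 kb and all 14 longer ones had a start interval, against 91.4% and 92.1% of all genes. Start intervals of at least 600 bp were present in 77.2% of members, against 66.1% of all genes, and in 46.7% of inward-rectifiers.

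**Figure D3:**
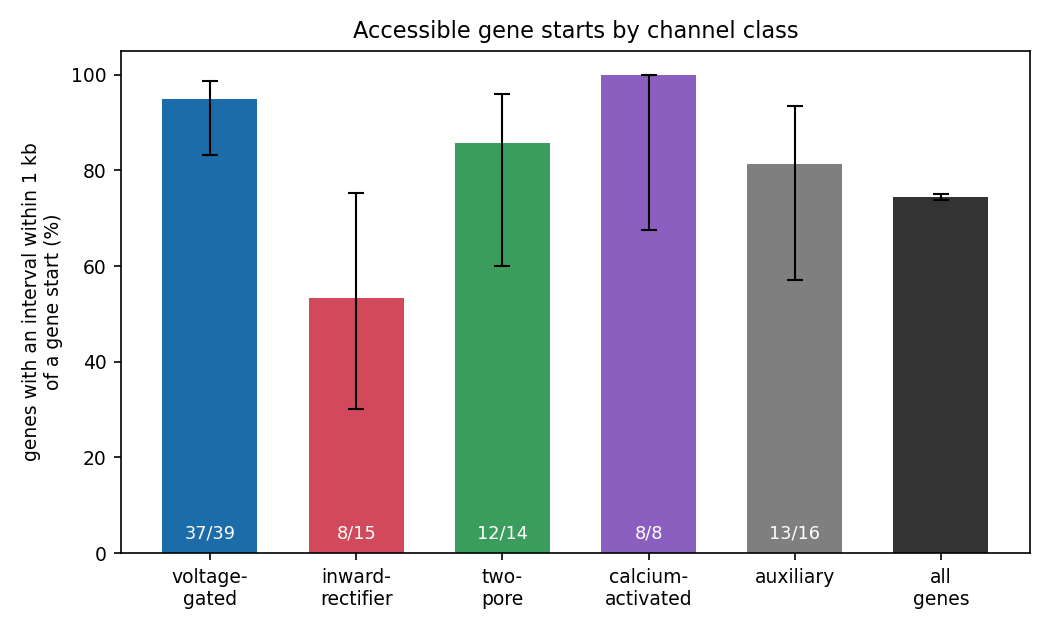
Share of genes with an interval within 1 kb of a gene start, in percent, for the 5 classes and for all autosomal protein-coding genes; whiskers are 95% Wilson intervals and the numbers are genes with a start interval over genes in the class. The inward-rectifier bar, at 53.3%, is the lowest, and the calcium-activated and voltage-gated bars are at 100% and 94.9%.

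The starts without an interval were poor in CpG dinucleotides. Many vertebrate promoters keep CpG-rich sequence, and the CpG ratio compares the number of CpG in a stretch with the number its C and G content would give. The promoter table holds 300 bases per start, from 250 bases before it to 50 after. Over the 17 tabulated member starts with no interval within 1 kb the median ratio was 0.233 (range 0 to 0.484), against 0.507 (0.0548 to 1.04) over the 76 member starts with an interval. Over all autosomal protein-coding genes the medians were 0.169 without and 0.720 with an interval. Among auxiliary genes the contrast was small, with 0.279 over 4 starts without an interval and 0.318 over 21 starts with one. Two-pore genes had 0.176 over 2 starts without and 0.587 over 13 with an interval. Voltage-gated genes had only 1 start without an interval. A ratio of at least 0.6 was reached by 26 of the 76 member starts with an interval (34.2%), against 63.9% of such starts over all genes. None of the 17 member starts without an interval reached it, against 6.83% over all genes. Among the 17 member starts with a ratio under 0.2, 10 had an interval (58.8%), against 29.2% of 4290 such starts over all genes. Because 73.9% of members have a tabulated promoter, fewer than 80%, a check of promoter content for the whole family is void, and these values describe the tabulated starts.

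**Figure D4:**
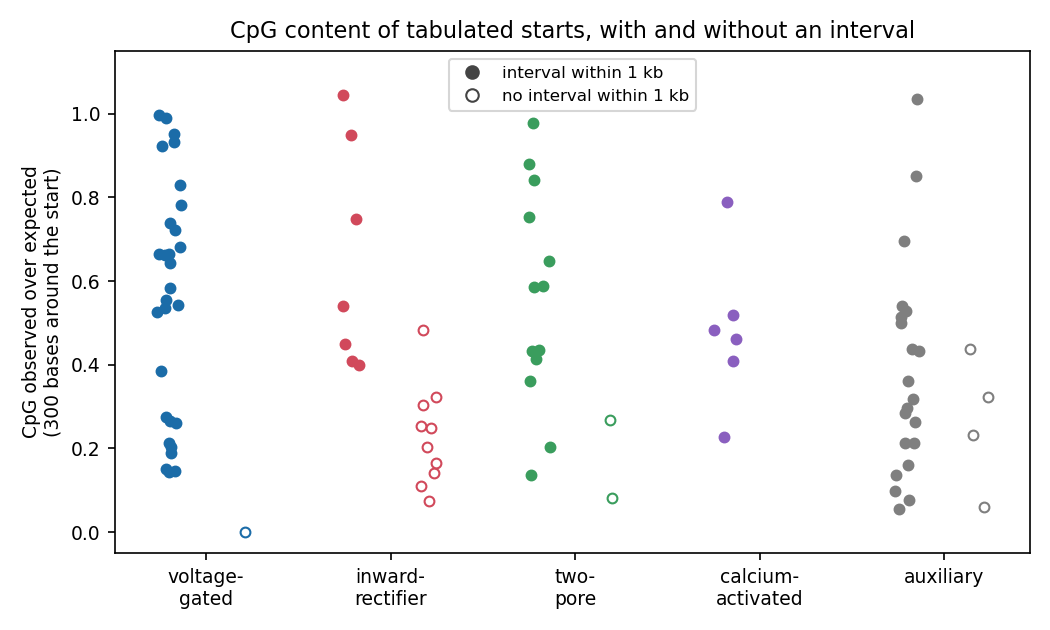
CpG ratio (observed over expected) in the 300 bases around each tabulated start, by class, with filled circles for starts with an interval within 1 kb and open circles for starts without. Open circles all lie below 0.5, and 10 of the 17 belong to inward-rectifiers, with 4 of these 10 from Kcnj16.

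The 10 tabulated inward-rectifier starts without an interval came from 7 genes, with 4 of the starts from Kcnj16. These genes include Kcnj6, which had an interval at its other start, and leave out Kcnj14, which has no tabulated start. The median CpG ratio of the 10 starts was 0.227, against 0.540 in the 7 inward-rectifier starts with an interval. Promoters from both ends of this range are printed as illustrations. The following stretches are from RefSeq for GRCm38.p6, 5′ to 3′ on the strand of the gene, with CG in capitals. The first 3 had no interval within 1 kb and the fewest CG of the inward-rectifiers without one, and the next 3 were fully covered by intervals and had the widest such start intervals. Kcnj16 (chr11:111023610-111023909, plus strand), Kcnj1 (chr9:32393735-32394034, plus) and Kcnj15 (chr16:95257308-95257607, plus) encode Kir5.1, the renal channel ROMK and Kir4.2, and Kcnj16 is shown at the last of its 4 starts.
Kcnj16: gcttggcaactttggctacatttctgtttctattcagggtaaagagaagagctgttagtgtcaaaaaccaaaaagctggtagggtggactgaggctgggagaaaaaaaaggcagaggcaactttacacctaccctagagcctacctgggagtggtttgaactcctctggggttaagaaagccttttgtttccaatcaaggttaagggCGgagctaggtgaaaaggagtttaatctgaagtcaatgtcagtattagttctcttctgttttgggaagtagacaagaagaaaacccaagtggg
Kcnj1: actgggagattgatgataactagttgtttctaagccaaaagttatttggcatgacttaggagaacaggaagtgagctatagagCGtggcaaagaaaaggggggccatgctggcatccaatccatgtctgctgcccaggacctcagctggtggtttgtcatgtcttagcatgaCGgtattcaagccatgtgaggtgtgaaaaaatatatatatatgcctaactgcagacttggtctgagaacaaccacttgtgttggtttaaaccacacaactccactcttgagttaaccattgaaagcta
Kcnj15: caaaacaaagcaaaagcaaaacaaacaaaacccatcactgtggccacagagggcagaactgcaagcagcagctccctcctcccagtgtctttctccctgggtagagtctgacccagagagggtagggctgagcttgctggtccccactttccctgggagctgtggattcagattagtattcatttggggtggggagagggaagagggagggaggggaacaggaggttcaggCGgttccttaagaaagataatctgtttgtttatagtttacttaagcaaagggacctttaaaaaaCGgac
Kcnj4 (chr15:79505192-79505491, minus), Kcnj2 (chr11:111065914-111066213, plus) and Kcnj5 (chr9:32344295-32344594, minus) encode Kir2.3, Kir2.1 and a G protein-gated subunit of the heart.
Kcnj4: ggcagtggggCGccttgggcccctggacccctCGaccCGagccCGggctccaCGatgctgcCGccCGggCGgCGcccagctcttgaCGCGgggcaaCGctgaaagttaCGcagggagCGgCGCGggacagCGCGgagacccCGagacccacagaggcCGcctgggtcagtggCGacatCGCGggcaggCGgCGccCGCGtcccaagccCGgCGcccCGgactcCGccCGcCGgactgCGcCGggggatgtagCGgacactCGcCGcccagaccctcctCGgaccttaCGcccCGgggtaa
Kcnj2: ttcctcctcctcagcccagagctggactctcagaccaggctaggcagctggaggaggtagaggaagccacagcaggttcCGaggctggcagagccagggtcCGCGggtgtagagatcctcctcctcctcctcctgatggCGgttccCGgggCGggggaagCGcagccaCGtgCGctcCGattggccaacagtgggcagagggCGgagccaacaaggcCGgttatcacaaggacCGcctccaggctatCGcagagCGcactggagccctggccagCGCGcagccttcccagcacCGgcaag
Kcnj5: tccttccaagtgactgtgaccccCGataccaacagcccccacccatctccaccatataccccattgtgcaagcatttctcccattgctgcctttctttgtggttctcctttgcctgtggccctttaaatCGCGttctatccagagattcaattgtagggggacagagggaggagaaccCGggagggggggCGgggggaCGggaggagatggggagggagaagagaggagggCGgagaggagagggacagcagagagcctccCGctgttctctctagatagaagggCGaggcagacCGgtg
The stretches of Kcnj16, Kcnj1 and Kcnj15 hold 1, 2 and 2 CG, and those of Kcnj4, Kcnj2 and Kcnj5 hold 41, 18 and 10. Their CpG ratios were 0.0738, 0.142 and 0.111, against 0.948, 0.540 and 0.399. Since the first 3 were picked for few CG, this contrast is partly set by the choice.

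The other pore-forming classes are shown by the fully covered start with the widest interval (Kcnt1, Kcnt2 and Kcnu1 left aside) and, where there was one, a start without an interval. Kcna10 (chr3:107182893-107183192, plus), a Shaker-type gene known from inner ear hair cells in mice, had no interval within 1 kb and no CG in its promoter. Kcng3 (chr17:83631846-83632145, minus), a modifier of Kv2 channels, had a start interval of 2638 bp and 49 CG.
Kcna10: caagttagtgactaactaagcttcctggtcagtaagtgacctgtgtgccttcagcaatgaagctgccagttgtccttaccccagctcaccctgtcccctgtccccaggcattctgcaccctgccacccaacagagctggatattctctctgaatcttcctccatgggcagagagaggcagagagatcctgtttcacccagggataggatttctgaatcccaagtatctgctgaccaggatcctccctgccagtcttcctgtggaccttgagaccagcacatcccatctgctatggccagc
Kcng3: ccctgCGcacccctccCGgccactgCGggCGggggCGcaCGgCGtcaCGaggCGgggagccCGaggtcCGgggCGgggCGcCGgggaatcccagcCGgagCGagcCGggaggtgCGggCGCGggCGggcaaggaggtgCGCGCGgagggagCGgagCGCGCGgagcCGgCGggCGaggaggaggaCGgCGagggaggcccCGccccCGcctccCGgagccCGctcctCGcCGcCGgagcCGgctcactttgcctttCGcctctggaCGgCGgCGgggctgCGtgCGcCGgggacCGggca
Kcnk16 (chr14:20269220-20269519, minus), the pancreatic beta cell channel TALK-1, had no start interval and 2 CG. Its neighbour Kcnk5 (chr14:20181733-20182032, minus), the acid-sensitive channel TASK-2, had a start interval of 1700 bp and 26 CG.
Kcnk16: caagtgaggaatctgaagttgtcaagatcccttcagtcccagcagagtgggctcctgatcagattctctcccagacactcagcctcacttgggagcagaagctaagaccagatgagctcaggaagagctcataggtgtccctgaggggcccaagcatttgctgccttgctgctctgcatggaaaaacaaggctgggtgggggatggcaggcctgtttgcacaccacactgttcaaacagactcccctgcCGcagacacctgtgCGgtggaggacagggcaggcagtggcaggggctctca
Kcnk5: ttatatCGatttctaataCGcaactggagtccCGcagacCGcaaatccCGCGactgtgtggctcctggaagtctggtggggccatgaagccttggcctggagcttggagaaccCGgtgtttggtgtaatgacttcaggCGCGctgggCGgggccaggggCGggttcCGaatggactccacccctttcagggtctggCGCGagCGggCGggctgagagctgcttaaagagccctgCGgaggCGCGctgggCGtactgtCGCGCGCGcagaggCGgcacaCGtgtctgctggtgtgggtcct
Kcnma1 (chr14:24004156-24004455, minus), which encodes the large-conductance BK channel, had a start interval of 1235 bp and 36 CG.
Kcnma1: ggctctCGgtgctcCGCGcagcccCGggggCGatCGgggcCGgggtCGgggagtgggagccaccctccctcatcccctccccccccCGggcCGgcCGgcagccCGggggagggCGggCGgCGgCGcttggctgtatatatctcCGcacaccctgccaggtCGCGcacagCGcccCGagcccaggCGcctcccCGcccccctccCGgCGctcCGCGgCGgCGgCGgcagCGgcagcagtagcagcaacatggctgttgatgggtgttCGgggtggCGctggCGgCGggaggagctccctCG
Sequence motifs were counted on both strands of these windows in all 93 tabulated member starts and in 20085 starts of all autosomal protein-coding genes. CANNTG, the E-box that Myf6 and its relatives bind, stood in 73.1% of member starts and 68.7% of all starts. The E-boxes CAGCTG and CAGGTG, which CANNTG includes, each stood in 24.7% of member starts, against 15.6% and 20.0% of all starts. GGGCGG was found in 47.3% against 47.0%, TATAAA in 5.38% against 12.7%, TGANTCA in 4.30% against 7.06% and GGAATG in 14.0% against 13.4%. TGACGTCA was found in no member start and in 2.30% of all starts. Starts of the same gene can overlap, and a match is not a bound site.

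The 7 inward-rectifiers without a start interval were Kcnj1, Kcnj9, Kcnj12, Kcnj13, Kcnj14, Kcnj15 and Kcnj16. None of them lacked accessible DNA in the window. Kcnj16 (chromosome 11, 110968033 to 111027968) had 6 intervals of 169 to 440 bp, all at least 3515 bp from its 4 starts. Kcnj1 (chromosome 9, 32372418 to 32399197) had 7, the widest of 1145 bp lying beyond its end at 32405246 to 32406390. Kcnj13 (chromosome 1, 87384577 to 87394729), which encodes Kir7.1 of retinal pigment epithelium, had 4, of 183 to 356 bp, all over the neighbouring gene Gigyf2. Kcnj15 (chromosome 16, 95257558 to 95300260) had 16, with 1 of 1176 bp centred 2462 bp after its start. Kcnj9 (chromosome 1, 172320508 to 172329322), a G protein-gated subunit of neurons, had 9, of which 3 lay over Igsf8. Kcnj14, which encodes Kir2.4 and has no tabulated start, had 6, with 3 over neighbouring genes. Kcnj12 (chromosome 11, 61022564 to 61073269), which encodes Kir2.2, had 20 intervals. Its tabulated start lay 1916 bp from the nearest interval, but 1 of 1126 bp (61021773 to 61022898) spanned its annotated upstream end. With that end counted, 9 of 15 inward-rectifiers had a start interval.

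Of the inward-rectifiers with an accessible start, Kcnj2 (chromosome 11, 111066164 to 111076825), the strong rectifier Kir2.1 of muscle and heart, had 4 intervals. They lay at and before its start, and that of 1150 bp (111065589 to 111066738) was centred on it. Kcnj8 (chromosome 6, 142564837 to 142571614), the pore of vascular ATP-sensitive channels, had 7, including 1 of 689 bp over its start. Kcnj11, the other ATP-sensitive pore, had 4, with 737 bp as the widest within 1 kb of a gene end. Their partner genes Abcc9 and Abcc8 had start intervals of 1050 and 366 bp. The G protein-gated genes Kcnj3 and Kcnj6 held 21 and 34 intervals at 10.2 and 12.5 per 100 kb. Kcnj3 had the widest start interval of the inward-rectifiers, at 2103 bp, and Kcnj6 had 1 of 528 bp at 1 of its starts and none at the other.

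All 8 genes of the calcium-activated class had a start interval, 5 at a tabulated start and 3 (Kcnn2, Kcnt1 and Kcnu1) at either gene end. Kcnma1 (chromosome 14, 23292288 to 24005110) held the most intervals of any member, 129 in a window of 733 kb (17.6 per 100 kb, 7.17% covered). A total of 124 lay in the gene away from its start, and the widest, of 1386 bp (23389471 to 23390856), was centred 614042 bp after the start. Kcnn4 (chromosome 7, 24369826 to 24385212), the intermediate-conductance channel of proliferating cells, held 11 intervals at 31.1 per 100 kb and had 22.1% of its window covered. Its start interval measured 823 bp (24369743 to 24370565), and wider ones of 1408 and 1427 bp were centred at -4794 bp and 7465 bp relative to the start. The small-conductance genes Kcnn1, Kcnn2 and Kcnn3 differed widely, with 37.6, 6.86 and 26.7 intervals per 100 kb. Kcnt2, Kcnt1 and Kcnu1 had 5.92, 21.5 and 8.23. Kcnu1, which encodes the sperm channel Slo3, had the narrowest end interval of the class, at 211 bp.

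Among voltage-gated genes, those with the most intervals were Kcnq5 (85), Kcnq1 (75), Kcnh1 (73) and Kcnb2 (50), all over 300 kb long. Kcnq5 (chromosome 1, 21398399 to 21962650) encodes Kv7.5 of neurons and muscle, and had an interval of 2216 bp over its inner start, which ended 41 bp short of its outer start. Kcnh1 (chromosome 1, 192189144 to 192510159) encodes the ether-a-go-go channel, and had 73 intervals at 21.4 per 100 kb with 661 bp as the widest at its start. Kcnq1, the slow cardiac channel with Kcne1 as partner, had 22.0 per 100 kb. Density was highest in Kcna7 (43.3 per 100 kb), a channel of skeletal muscle and heart, where 5 of 11 intervals lay over neighbouring genes. Kcnh3 (33.9), Kcnh2 (30.7), which encodes the cardiac channel hERG, and Kcnh6 (29.4) followed. Without the flank Kcna7 held only 1 interval, and the nearest interval lay 79 bp from its start. The A-type genes Kcnd2 and Kcnd3 were sparse, with 6.17 and 10.3. The widest start intervals of this class were those of Kcna1 (2790 bp, at a gene end), Kcng3 (2638 bp) and Kcnc2 (2332 bp), and Kcna1 and Kcng3 led all members. Kcna1 and Kcnc2 encode channels of fast-firing neurons.

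Kcna10, Kcna5, Kcnv1 and the two-pore gene Kcnk18 held a single interval each. That of Kcna10 (389 bp, 107188336 to 107188724 on chromosome 3) lay 5387 bp after its start, and that of Kcna5 (508 bp, 126535203 to 126535710 on chromosome 6) lay over its start. Kcna5 encodes Kv1.5. Kcnv1, a silent subunit, had 1 of 685 bp inside the gene (45114215 to 45114899 on chromosome 15). Kcnk18, which encodes TRESK of sensory neurons, had 1 of 126 bp (59243200 to 59243325 on chromosome 19) beyond its end, and its window was the least covered of all members, at 0.334%.

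Two-pore genes ranged from that lowest cover to the highest. Kcnk7 (chromosome 19, 5704471 to 5707984), whose protein has given no measured current, held 14 intervals at 59.5 per 100 kb with 26.95% of its window covered. Of these 14, 11 lay over its neighbours Map3k11 and Ehbp1l1, and 3 did not. Kcnk2 (chromosome 1, 189207930 to 189402782), which encodes the stretch-activated leak channel TREK-1, had the most intervals of the class, 36. All 4 of its starts had an interval within 1 kb, the widest measuring 1166 bp. Its relatives Kcnk10 (TREK-2) and Kcnk4 (TRAAK) held 21 and 8, both with accessible starts. Kcnk13 had a start interval of 2408 bp, the widest of the class, and 18 intervals. Kcnk3 and Kcnk9, the acid-sensitive channels TASK-1 and TASK-3, differed with 22.8 and 4.49 intervals per 100 kb.

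Auxiliary genes held some of the highest counts. Kcnab1 (chromosome 3, 64949212 to 65378225), a beta subunit of Shaker-type channels, held 109 intervals at 24.3 per 100 kb, and all 3 of its starts were accessible. Among the Kv4 partners, Kcnip1 held 79 at 20.6 per 100 kb, while Kcnip4 (chromosome 5, 48389503 to 49525122), the longest member at 1136 kb, held 72 at 6.23. The highest density of the class was that of Kcne4 (chromosome 1, 78816911 to 78820032), a small subunit that inhibits several voltage-gated channels, with 11 intervals at 47.6 per 100 kb. Its start lay in an interval of 281 bp (78816695 to 78816975), and a wider one of 895 bp followed inside the gene. Kcne1 and Kcne2 had no start interval, nor had Kcnmb3, whose widest interval of 2024 bp (32495365 to 32497388 on chromosome 3) was centred at -4407 bp relative to its tabulated start. Kcnmb1, the smooth muscle beta subunit of BK channels, lies inside Kcnip1, and all 7 of its intervals were shared with that gene.

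**Figure D5:**
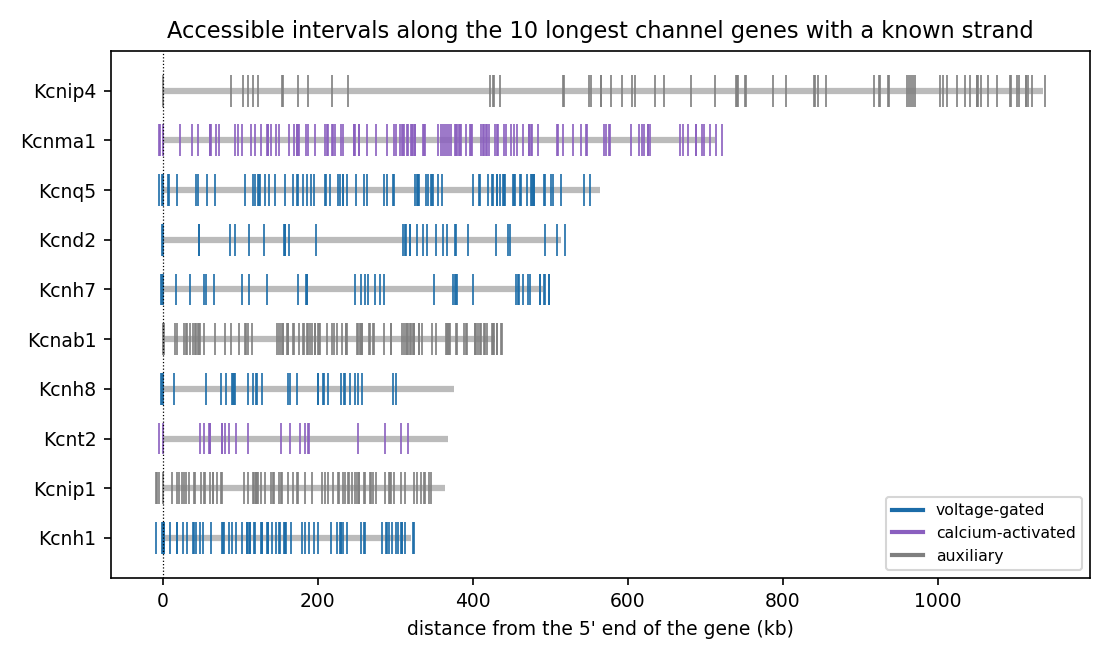
Positions of interval midpoints along the 10 longest members with a known strand, as distance in kb from the 5′ end of the gene; each vertical tick is 1 interval, coloured by class, and grey bars are gene bodies. Intervals run through the whole of Kcnma1 and Kcnab1, while Kcnip4, Kcnd2 and Kcnh8 have long empty stretches.

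Along the long genes, intervals were spread over the body and did not gather in the first of 5 equal parts of the gene. Of 1400 intervals of the 68 members with a tabulated start, of any length, 6.86% lay within 1 kb of a start. A further 76.9% lay in the gene away from it, and 7.50% and 8.71% lay before and beyond the gene. These shares were not set against the share of bases near starts, so they do not show how dense intervals were there. Start intervals had a median width of 770 bp and those in the body 313 bp. In the 19 members of at least 100 kb with a known strand, a median of 18.6% of the intervals over the gene (range 6.45 to 27.8%) lay in the first of 5 equal parts. The first part held the highest count, ties included, in 3 of the 19 (Kcnt2, Kcnc2 and Kcnk10), each time as a tie. Kcnip4 had 30 of its 71 intervals in the last part and a stretch of 183 kb without any. Kcnd2 had none in its middle part and an empty stretch of 112 kb, and Kcnh8 had none in its last part. The longest empty stretch of Kcnma1 was 38.4 kb, or 5.38% of the gene, and that of Kcnq3 was 99.6 kb, or 33.2%.

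Members were also grouped by the tissues they are known from, and these counts are set beside start intervals in 84.8% of all members and 74.4% of all autosomal protein-coding genes. Of 11 genes of muscle and myoblasts 10 had a start interval (not Kcnj12), with a median of 21.4 intervals per 100 kb. All 6 genes of fibroblasts and smooth muscle (Kcnma1, Kcnmb1, Kcnn4, Kcnj8, Kcna5 and Kcnk2) had one, at a median of 20.2. Of 8 heart genes 7 had one (not Kcne1), at 20.1, and of 10 neuronal genes 9 had one (not Kcnj9), at 13.05. Of 6 genes of epithelium and kidney 2 had one, Kcnj10 and Kcnk5, at a median of 16.0. Apart from the epithelial list, 5 of whose 6 genes are inward-rectifiers, these counts lie near the share of the whole family. Differences between the lists were not tested. A start interval shows that DNA was open there and not that the gene was transcribed. Kcnma1 stands in both the muscle and the fibroblast lists.

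Partners of the channels and other channel families give the surroundings of these values. Beside the 74.4% of all autosomal protein-coding genes with a start interval, 16 of 17 partner genes had one, with a median of 14.6 intervals per 100 kb. The ubiquitin ligase gene Nedd4l was the exception. These shares were not matched for length. Partner genes had a median length of 115 kb, and 91.4% of all genes of 100 to 300 kb had a start interval. Start intervals of at least 600 bp were present in 58.8% of partners, against 66.1% of all genes. Rest, the repressor of neuronal genes, had a start interval of 2235 bp, the widest of the partners. The anchoring gene Ank3 (24.1 per 100 kb) and the scaffold gene Dlg1 (26.1) were dense, while the Kv4 partners Dpp10 (3.72) and Dpp6 (5.48) and the Shaker-associated Cntnap2 (3.89) were sparse. Voltage-gated sodium channel alpha subunits had start intervals in 7 of 10 genes, at a median of 12.2 intervals per 100 kb. Calcium channel alpha-1 subunits, with a median length of 159 kb, had them in 9 of 9 (21.8 per 100 kb) and Hcn pacemaker channels in 4 of 4 (23.6). Chloride channels of the Clcn type had them in 4 of 6, Trpc channels in 5 of 6, Trpm channels in 5 of 8 and Trpv channels in 3 of 6.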

How the data were processed

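The deposited table was made by the authors with HOMER's annotatePeaks from consensus peaks, a GRCm38.p6 sequence and GENCODE vM23, per the file headers. BWA, MACS2 and DESeq2 are named in the submitters' processing notes. Settings of peak calling and joining are not given in the sources used here. Of the deposited columns, the peak score is 0 in every row and was not used. Positions, 1-based, were used as given, and depth per library is unknown, so no treatment test was run. No label states if a group used separate cultures.

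Genes came from RefSeq (GRCm38.p6) and starts from its promoter table, which gave 93 starts for 68 members. Counts, densities, cover and start intervals were computed for every autosomal protein-coding gene, with Python 3.11.15, pandas 2.3.3, numpy 2.4.6, scipy 1.17.1 and matplotlib 3.10.9. Overlap counting was checked on simulated intervals. No p-value was computed. Named genes were, per class, those with the most, densest, sparsest and widest start intervals, plus tissue lists and clusters. Kcnh8, Kcnj14 and Kcns3 are named outside this rule, after their values were seen. Members and lists were chosen with earlier results of these data known. Sequences printed were chosen by start interval width, cover and CpG count. Alternatives varied the flank, the interval width, the start distance and the class membership.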

Additional observations from a re-analysis of the deposited data

How the results depend on the processing

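No paired analysis was possible because the table holds no value for any library, and leaving out replicates could not be run for the same reason. A share was taken as moved when it left its Wilson interval, and other values when they changed by more than 1.5 times. Of 202 class and family values under alternatives, 160 were kept by this measure and 42 moved. Counts of single named genes moved more often. Of 70 such counts, 51 moved with 50 kb on either side, 51 at 300 bp and 26 without a flank. Inward-rectifiers had the lowest share of genes with a start interval among the classes under every start setting run. Their share was 53.3% at 500 bp, 73.3% at 2 kb and 60.0% at either gene end. It was 53.8% for tabulated starts alone and 60.0% for starts or upstream ends. Over all autosomal protein-coding genes the shares were 71.6%, 78.1%, 76.5%, 73.4% and 75.3% in the same order. At 2 kb, with 11 of 15, the inward-rectifiers came nearest to the share of all genes. The last pair of these start settings was added after the data were seen. At 2 kb the share moved to 91.3% for all members and 93.8% for auxiliary genes, and the median width of inward-rectifier start intervals to 868 bp. It was 964.5 bp over genes with a start interval. Median counts, in the order voltage-gated, inward-rectifier, two-pore, calcium-activated, auxiliary and all members, became 29, 24, 24.5, 31.5, 30 and 29 with 50 kb on either side. They became 7, 5, 5.5, 9, 8 and 7 for intervals of at least 300 bp, and 3, 3, 3.5, 5.5, 4.5 and 4 for at least 600 bp. Without a flank they moved to 7 (voltage-gated and all members), 4 (inward-rectifier) and 5 (two-pore). Without intervals in windows of other genes they moved to 7, 5 and 7 for voltage-gated, two-pore and all members. Densities per 100 kb at 300 bp moved to 9.60 (voltage-gated), 9.74 (two-pore), 9.48 (calcium-activated), 13.2 (auxiliary) and 10.7 (all members). At 600 bp they were 3.84, 5.66, 6.75, 4.39, 7.82 and 5.58 in the order above. The members' median density, below that of all genes as reported, lay above it with the bases of other gene bodies left out (17.4 against 17.3) and at 600 bp (5.58 against 5.38). It stayed lower under the other density settings run, by little at 300 bp (10.73 against 10.752). As total intervals over total window the members had 14.1 against 17.5. The shifts in counts follow from fewer intervals or wider windows. Without Kcnt1, Kcnt2 and Kcnu1 the calcium-activated class had a median of 30 intervals and 13.2% cover. Unknown read depth limits all counts.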

Other observations

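Members within 200 kb of each other formed 8 clusters, and in 5 of them some members had a start interval and others had none. Kcnk5 and Kcnk16, within 129 kb on chromosome 14 (20140057 to 20269269), had 14 and 4 intervals, and only Kcnk5 had a start interval. Kcnj2 and Kcnj16 lie within 109 kb on chromosome 11 (110968033 to 111076825) with 4 and 6 intervals, and Kcnj2 alone had an accessible start. Kcnj10 and Kcnj9 on chromosome 1 and Kcnj5 and Kcnj1 on chromosome 9 likewise had 1 accessible start per pair. In the Shaker clusters, Kcna5, Kcna1 and Kcna6 on chromosome 6 (126532551 to 126740834) had 1, 4 and 11 intervals and a start interval each. Kcna3, Kcna2 and Kcna10 on chromosome 3 (107036162 to 107195721) had 4, 5 and 1, with start intervals at Kcna3 and Kcna2. Kcne1 and Kcne2, neighbours on chromosome 16, both lacked a start interval with 11 and 3 intervals in their windows, and Kcnip1 and Kcnmb1 both had one.

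Of 15 members with several tabulated starts, 11 had an interval within 1 kb of every start and 2, Kcnj16 and Kcne2, at none. Some starts lie so close that they share an interval, as do the 4 starts of Kcnc2 (2332 bp), both of Kcns3 (1723 bp) and both of Kcnq5 (2216 bp). In Kcnip1 the 3 starts each had an interval over the start site, the widest within 1 kb of each measuring 948, 508 and 847 bp. In Kcnj6 and Kcne3 some starts had an interval and others did not.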
